A study of Macaca mulatta with 14 samples.

Results

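The AP-1 family of transcription factors was followed in blood of aged rhesus macaques, in the mononuclear cell fraction (PBMC), which holds lymphocytes and monocytes. The 9 genes considered were FOS, FOSB, FOSL2, JUN, JUNB, JUND, ATF3, BATF and MAFF. They were chosen by name, and their probe sets are those for which the platform annotation gives the gene as the single symbol. This gave 10 probe sets of 52865 on the array. They cover 7 of the 9 genes, of 14132 genes with a probe set: 3 for ATF3, 2 for FOSL2 and 1 each for FOS, JUNB, JUND, BATF and MAFF. JUN and FOSB have no such probe set in the annotation used and were not analysed here.

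AP-1 is a set of dimers that bind DNA through a basic region and a leucine zipper. FOS proteins pair with JUN proteins, and ATF, BATF and small MAF proteins share the same fold and exchange partners with them or with related factors. FOS, JUNB and ATF3 are induced quickly and briefly when a cell meets a cytokine, antigen, microbial product or stress, through MAP kinases acting on factors already bound to their promoters. In blood cells, AP-1 takes part in T cell activation together with NFAT, and in the cytokine response of monocytes.

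The study compared 7 male animals on a control diet (24 to 27 years old) with 7 male animals on calorie restriction (CR, 24 to 30 years old). CR had lasted 16 years at blood collection, a figure that the design text attaches to both diets and that is taken here to apply to the CR arm. Each animal contributed 1 array of labelled cRNA from total RNA, and the titles call the arrays of a diet biological replicates. Ages of single animals were not given, so age was no covariate.

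The cells carried markers of monocytes, T cells, B cells and cytotoxic cells. The geometric mean signal (MAS5, linear scale) was 1002 for CD14 and 11904 for LYZ of monocytes, 3118 for CD5 of T cells, 7315 for MS4A1 of B cells and 3589 for NKG7 of cytotoxic cells. Some markers of these types were dim, such as CD79A of B cells (45.1) and GZMK of cytotoxic cells (38.3). CD3D, CD3E and CD3G of T cells had no probe set with a single symbol. The platelet gene PF4 was also present, at 47771. Marker levels were uneven between arrays. A monocyte marker score, the mean of 12 marker genes after centring each on its mean over the arrays, was -1.34 in CR 6 and -1.05 in CR 7 and between -0.57 and 0.79 on the other arrays. CR 6 and CR 7 were also the lowest arrays in the neutrophil score (-1.87 and -1.86, against -0.28 to 1.12 on the others) and in the platelet score (-1.70 and -0.93), so results without them set aside all 3 features. Control 1 stood apart in RNA quality: its log2 ratio of 3-prime to 5-prime signal was the highest of the 14 arrays for both GAPDH (7.50) and EF1A (5.38). These ratios were well above 0 on every array, at least 5.06 for GAPDH and 3.24 for EF1A. The median GAPDH ratio was 6.06 in controls and 6.62 in CR (exact permutation p = 0.222). In PBMC, fewer cells of a type and less RNA per cell cannot be told apart.

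Of the 7 genes with a probe set, 6 passed the signal filter (the brighter 50% of all probe sets by mean log2) and JUND did not. FOS, FOSL2, JUNB, ATF3 and MAFF had a lower mean in CR and BATF a higher one. That is 5 of 6 below 0, against 46.0% of the 9355 tested genes, and 1 of 6 above 0, against 54.0%. The median difference of the 6 was -0.38 on the log2 scale, against 0.025 over all tested genes. No member passed at an adjusted p under 0.05 (limma, Benjamini-Hochberg over 26383 probe sets), and 0% of all probe sets passed in each direction. The smallest adjusted p in the table was 0.771, and 1350 probe sets had an unadjusted p under 0.05 (1341 with unmoderated variances, where 0 passed at an adjusted p). At an unadjusted p under 0.05, MAFF was lower (2.02% of all genes and 2.82% of all probe sets) and BATF higher (3.16% of genes and 2.29% of probe sets). The control and CR arrays overlapped in all 7 tested probe sets of the family, and 0.0834% of all tested probe sets did not overlap. Probe set signals differ in their hybridisation, so levels are compared between arrays and never between genes.

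**Figure D1:**
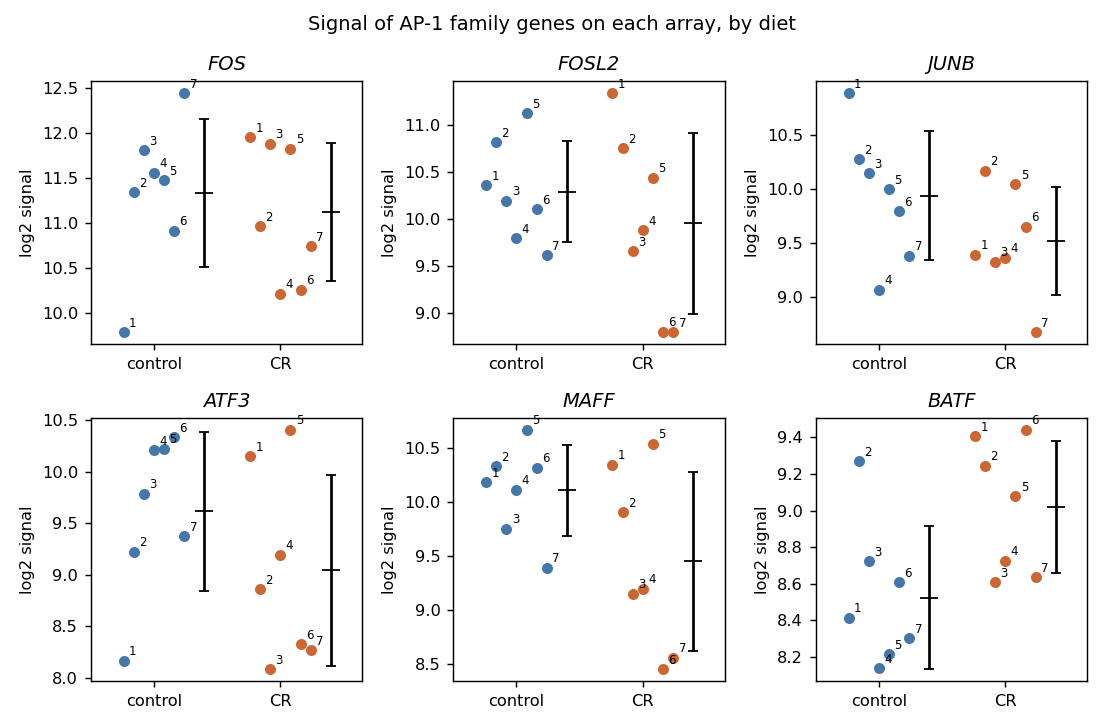
Log2 MAS5 signal (vertical axis) of the 6 tested AP-1 genes on each of the 14 arrays, with the animal number of its diet beside each point. Horizontal bars are means and vertical bars 1 SD (n = 7 per diet). CR 6 and CR 7 are the lowest points for FOSL2 and MAFF, and in BATF all 7 CR arrays lie above the control median.

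Among the FOS proteins, FOS (the founding member, an inducible partner of JUN proteins) was measured by probe set MmugDNA.38565.1.S1_at. Its signal in controls ran from 887 in control 1 through a median of 2843 to 5559 in control 7. In CR it ran from 1190 in CR 4 through a median of 1996 to 3968 in CR 1. The CR arrays fell into a higher set (CR 1, CR 3 and CR 5) and a lower set (CR 2, CR 4, CR 6 and CR 7), both inside the control range. On the log2 scale controls averaged 11.33 ± 0.82 (SD, n = 7) and CR arrays 11.12 ± 0.76. CR minus control was -0.21 ± 0.37 (SE, 95% interval -0.98 to 0.56, adjusted p = 0.960, limma). Single arrays carried much of this value: it was -0.47 without control 1 and -0.027 without control 7. FOS was among the more variable genes, with a within-diet SD of 0.79 that exceeded that of 89.4% of tested genes.

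FOSL2 (FRA-2, a FOS relative expressed more steadily) was measured by MmuSTS.2660.1.S1_at. Its signal ran from 782 in control 7 through 1169 to 2234 in control 5, and in CR from 444 in CR 7 through 943 to 2591 in CR 1. The CR range thus enclosed that of controls, with CR 6 and CR 7 below every other array. The log2 means were 10.29 ± 0.54 (SD, n = 7) and 9.95 ± 0.96, a difference of -0.33 ± 0.36 (SE, 95% interval -1.10 to 0.43, adjusted p = 0.940, limma). Single arrays moved it both ways, to -0.57 without CR 1 and -0.14 without CR 7, and without both CR 6 and CR 7 it had the opposite sign (0.13 ± 0.31). A second FOSL2 probe set was under the intensity floor of 16 on 11 of 14 arrays and gives no usable level.

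Of the JUN proteins, JUNB (a partner of FOS proteins that often opposes JUN in growth control) was measured by MmugDNA.21723.1.S1_at. Signal ran from 538 in control 4 through 1022 to 1889 in control 1, and in CR from 409 in CR 7 through 671 to 1149 in CR 2. Of the CR arrays, 2 of 7 were above the control median. The log2 means were 9.93 ± 0.60 (SD, n = 7) and 9.52 ± 0.50, a difference of -0.42 ± 0.27 (SE, 95% interval -0.99 to 0.15, adjusted p = 0.924, limma). It was -0.26 without control 1, the array with the highest JUNB signal and the highest 3-prime to 5-prime ratios. JUNB signal had a Pearson r of 0.61 with the GAPDH ratio (permutation p = 0.0331, rho = 0.60 with permutation p = 0.0374, n = 14), which did not pass over 56 added relations (adjusted p = 0.336), and r was 0.39 without control 1 and 0.49 without control 1 and control 6, the arrays farthest from the median ratio. It was 0.77 without CR 6 and CR 7 (permutation p = 0.0101). Within controls alone it was 0.83 (exact permutation p = 0.0224) and within CR alone 0.047 (exact permutation p = 0.915). Of the other members, ATF3 had an r of -0.55 with the GAPDH ratio (permutation p = 0.0288, rho = -0.41 with permutation p = 0.143), and -0.23 without the same 2 farthest arrays. FOS had an r of -0.61 with the EF1A ratio (permutation p = 0.0387, rho = -0.47 with permutation p = 0.0985), and -0.49 without control 1 and control 2. Neither passed (adjusted p = 0.336 for both). The ATF3 value was -0.82 within controls (exact permutation p = 0.0244) and -0.21 within CR (exact permutation p = 0.667). The FOS value was -0.69 within controls and -0.62 within CR (exact permutation p = 0.104 and 0.130). Whether these relations differed between diets was not tested. The part of RNA quality in the diet differences was not tested either.

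JUND, the most constitutive JUN protein, had a single dim probe set (MmugDNA.10738.1.S1_s_at) below the filter. Its signal was under the floor on 5 of 14 arrays, with a median of 23.1 in controls and 16.1 in CR. The highest value was 86.1 in control 3. The difference in a fit of all probe sets was -0.65 ± 0.36 (SE, adjusted p = 0.957, limma). With a floor of 32 it was -0.35, and without control 3 it was -0.40.

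ATF3, a stress-induced factor that restrains inflammatory cytokine genes in monocytes and macrophages, had 2 tested probe sets. On the brighter (MmugDNA.11328.1.S1_at), signal ran from 287 in control 1 through 883 to 1294 in control 6, and in CR from 272 in CR 3 through 464 to 1361 in CR 5. CR 5 lay above every control, CR 1 among the higher controls, and the other 5 CR arrays lay below every control except control 1. The log2 means were 9.62 ± 0.77 (SD, n = 7) and 9.04 ± 0.93, a difference of -0.58 ± 0.40 (SE, 95% interval -1.41 to 0.26, adjusted p = 0.924, limma), and -0.82 without control 1. Its within-diet SD of 0.86 exceeded that of 91.9% of tested genes. The second probe set (MmugDNA.31246.1.S1_at) gave -0.23 ± 0.20 (SE, adjusted p = 0.932, limma). The third, under the filter, gave 0.37 ± 0.52. These probe sets did not track each other: over 14 arrays, with diet means subtracted, the brighter one had a Pearson r of 0.084 with the second and -0.17 with the third. On the second probe set, control 1 was the highest array (343), whereas it was the lowest control on the brighter one. Statements on ATF3 below rest on the brighter probe set alone.

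MAFF, a small MAF protein without an activation domain of its own that is induced by stress and cytokines, was measured by MmuSTS.3116.1.S1_at. Signal ran from 669 in control 7 through 1160 to 1624 in control 5, and in CR from 350 in CR 6 through 586 to 1484 in CR 5. CR 3, CR 4, CR 6 and CR 7 lay below all controls, and CR 1, CR 2 and CR 5 lay within the control range. The log2 means were 10.10 ± 0.42 (SD, n = 7) and 9.45 ± 0.83, a difference of -0.66 ± 0.31 (SE, 95% interval -1.32 to -0.00061, a 0.633-fold level). The unadjusted p was 0.0498 and the adjusted p 0.918 (limma), and the exact permutation p, from 3432 ways to divide the arrays, was 0.0862 (two-sided). Without CR 6 and CR 7 it was -0.28 ± 0.28.

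BATF, which pairs with JUN proteins and with IRF4 or IRF8 in activated lymphocytes, stood on the other side. Probe set MmugDNA.18498.1.S1_at ran from 282 in control 4 through 341 to 618 in control 2, and in CR from 390 in CR 3 through 540 to 695 in CR 6. All 7 CR arrays were above the control median, which held for 5.56% of all tested genes, and control 2 reached into the upper CR values. The log2 means were 8.52 ± 0.39 (SD, n = 7) and 9.02 ± 0.36, a difference of 0.50 ± 0.21 (SE, 95% interval 0.056 to 0.94, 1.41-fold). The unadjusted p was 0.0294 and the adjusted p 0.918 (limma), and the exact permutation p was 0.0309 (two-sided). With 1 array left out the difference ran from 0.43 to 0.62. Its within-diet SD of 0.38 was below the median of tested genes (0.42).

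The members were next set against the monocyte marker score. Over the 14 arrays with diet means subtracted, so that only variation between animals of 1 diet counts, MAFF, FOSL2 and ATF3 correlated with the monocyte marker score. The Pearson r was 0.85 for MAFF (permutation p = 0.00091, rho = 0.89 with permutation p = 0.00023), 0.84 for FOSL2 (permutation p = 0.00113, rho = 0.77 with permutation p = 0.00482) and 0.82 for ATF3 (permutation p = 0.00116, rho = 0.83 with permutation p = 0.00101). The adjusted p was 0.00812 for all 3, over the 28 relations computed for the family. An r above 0.8, a limit set after these values were seen, was reached by 2.01% of the 9343 tested genes outside the marker list. FOS had an r of 0.51 (permutation p = 0.0719, rho = 0.37 with permutation p = 0.217, adjusted p = 0.264). For BATF (r = 0.21, permutation p = 0.469, rho = 0.20) and JUNB (r = 0.11, permutation p = 0.720, rho = 0.19) the adjusted p was 0.656 and 0.840. The arrays of a relation share their own scaling.

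Without CR 6 and CR 7, the arrays farthest from the median score, r was 0.71 for MAFF (permutation p = 0.0173) and 0.67 for FOSL2 (permutation p = 0.0277), both lower than over all arrays. For ATF3 it was 0.83 (permutation p = 0.00269), close to the value over all arrays. For BATF it was 0.45 (permutation p = 0.161), higher than over all arrays. With these 2 arrays fewer, 0 of the 28 relations passed adjustment. The ATF3 relation also lost its call without control 1 (r = 0.77, adjusted p = 0.0750 by permutation). Within controls alone r was 0.85 for ATF3 (exact permutation p = 0.0202, rho = 0.75), 0.53 for MAFF (exact permutation p = 0.221, rho = 0.75) and 0.42 for FOSL2 (exact permutation p = 0.346, rho = 0.43). Within CR alone it was 0.82 for ATF3 (exact permutation p = 0.0317, rho = 0.79), 0.96 for MAFF (exact permutation p = 0.00238, rho = 0.96) and 0.98 for FOSL2 (exact permutation p = 0.000794, rho = 0.93). Whether the relation differed between diets was not tested.

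**Figure D2:**
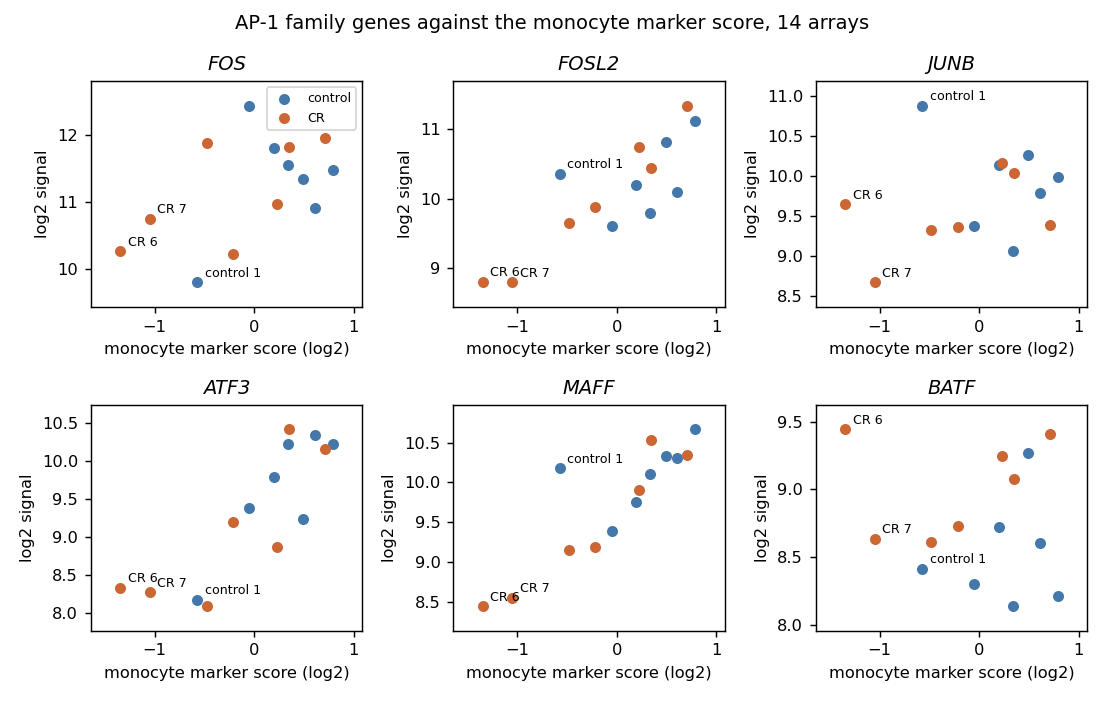
Log2 MAS5 signal of each tested AP-1 gene (vertical axis) against the monocyte marker score (horizontal axis, log2) on the 14 arrays, coloured by diet. MAFF, FOSL2 and ATF3 climb with the score over the 14 arrays, while JUNB and BATF show no such slope. CR 6 and CR 7 lie at the far left, and without them BATF has an r of 0.45 with diet means subtracted.

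The diet difference was also read with the monocyte score as a covariate. FOS was then at 0.12 ± 0.35 (SE), FOSL2 at 0.21 ± 0.24 and ATF3 at 0.0024 ± 0.28, each with the opposite sign. MAFF was at -0.19 ± 0.21 and JUNB at -0.37 ± 0.30, so 2 of 6 members remained below 0 and the median was 0.063. Of all tested genes 46.1% were below 0 with this covariate, with a median of 0.029. BATF was at 0.56 ± 0.23. No member passed (adjusted p from 0.674 for BATF to 0.999 for ATF3, limma). When CR 6 and CR 7 were left out instead, 3 of 6 members were lower (JUNB, ATF3 and MAFF, each at -0.28) and the median was -0.12. Without these 2 arrays 45.3% of all tested genes were lower, with a median of 0.035. BATF was then at 0.49 ± 0.23. Other scores as covariates, added after the data were seen, also shifted members. With the NK and cytotoxic score MAFF was at -0.21, FOSL2 at -0.15, ATF3 at -0.24, JUNB at -0.32 and FOS at -0.51, with a median of -0.23 over the 6 members. With the T cell score ATF3 was at 0.013, FOSL2 at -0.28, FOS at -0.33, MAFF at -0.45 and JUNB at -0.59, with a median of -0.30. All 12 measured monocyte markers had a lower mean in CR, 0 of them with an adjusted p under 0.05 (limma). None of the 12 was under the floor on any array, and their summed signal ran from 45268 to 127857 in controls and from 17325 to 86297 in CR.

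**Figure D3:**
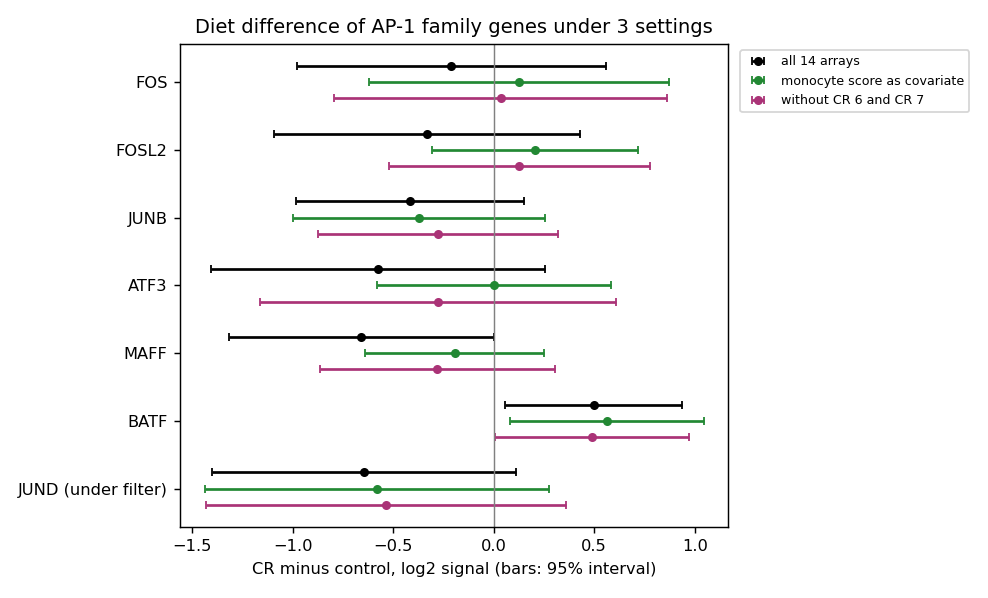
CR minus control in log2 signal (horizontal axis) for the 6 tested AP-1 genes and for JUND, which lay under the signal filter. Points are estimates and bars 95% intervals of the limma fit on all 14 arrays, with the monocyte score as a covariate, and without CR 6 and CR 7. BATF lies between 0.49 and 0.56 in these 3 settings, while FOS and FOSL2 cross 0. With the NK and cytotoxic score or the T cell score as a covariate, not drawn here, BATF was at 0.17 and 0.26.

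BATF was also set against lymphocyte markers, and no relation passed. Its r was 0.53 with the NK and cytotoxic score (permutation p = 0.0626, rho = 0.54 with permutation p = 0.0420) and 0.48 with the T cell score (permutation p = 0.0926, rho = 0.53 with permutation p = 0.0699), each with an adjusted p of 0.336 over the 56 added relations. Without the 2 arrays farthest from the median score, r was 0.36 and 0.40. Both scores were higher in CR. The NK and cytotoxic score ran from -0.65 to 0.15 in controls and from -0.078 to 0.50 in CR, and the T cell score from -0.56 to 0.062 and from -0.43 to 0.59. As covariates, chosen after the data were seen, they gave BATF differences of 0.17 and 0.26. Of the T cell markers 5 of 6 tested genes had a higher mean in CR, of the NK and cytotoxic markers 7 of 8, and of the B cell markers 4 of 5. Of all tested genes 54.0% were higher. At an unadjusted p under 0.05 (limma), 3 T cell, 4 NK and cytotoxic and 0 B cell markers were higher, against 3.16% of all genes. In the same fit 0 of the 12 monocyte markers were lower at that limit, and 0 markers of these lists had an adjusted p under 0.05.

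FOSL2 and MAFF were also set against the neutrophil list (CAMP, CSF3R, MPO, S100A8 and S100A9, of which the S100 genes are abundant in monocytes too). The r was 0.88 for FOSL2 (permutation p = 0.00037, adjusted p = 0.0207 over the 56 relations; rho = 0.73 with permutation p = 0.00532, adjusted p = 0.149) and 0.83 for MAFF (permutation p = 0.00279, rho = 0.76, adjusted p = 0.0781). The FOSL2 relation thus passed by Pearson r and not by Spearman rho, and the MAFF relation by neither. Without CR 6 and CR 7 these were 0.74 and 0.64, and FOSL2 no longer passed by r either (adjusted p = 0.221 by permutation). BATF had an r of 0.31 with this score over all arrays (permutation p = 0.289). Without CR 6 and CR 7 the BATF value was 0.75 (permutation p = 0.0082, adjusted p = 0.221). All 5 neutrophil genes had a lower mean in CR, with a median difference of -0.52. The platelet list was split, with 3 of 6 lower, the dendritic list had 2 of 3 lower, and the erythroid list had 1 tested gene. With the platelet score r was 0.59 for MAFF, 0.58 for ATF3 and 0.57 for FOSL2 (permutation p = 0.0678, 0.0465 and 0.0784). None passed (adjusted p = 0.336 for all 3), and without CR 6 and CR 7 these r values were 0.12, 0.47 and 0.039. FOSL2 had an r of -0.61 with the B cell score (permutation p = 0.0493, adjusted p = 0.336), and -0.66 without CR 6 and CR 7.

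Members varied together only in part. Of the 15 pairs among the 6 tested genes, 12 had an r above 0, with a median of 0.36 and a range from -0.33 (FOS and JUNB) to 0.89 (FOSL2 and MAFF). FOSL2 and MAFF were the only pair past adjustment (r = 0.89, permutation p = 0.00034, rho = 0.88 with permutation p = 0.00037, adjusted p = 0.00812). Without CR 6 and CR 7 their r was 0.79 with an adjusted p of 0.0990 by permutation. ATF3 and MAFF had an r of 0.66 (permutation p = 0.0207, rho = 0.64, adjusted p = 0.116), which passed without control 1 (r = 0.80, adjusted p = 0.0420 by permutation). FOS and ATF3 reached 0.48 (permutation p = 0.0952, rho = 0.35, adjusted p = 0.264). FOS and JUNB, which form a dimer, had an r of -0.33 (permutation p = 0.268, rho = -0.27, adjusted p = 0.501), and -0.0097 without control 1, the array lowest for FOS and highest for JUNB.

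**Figure D4:**
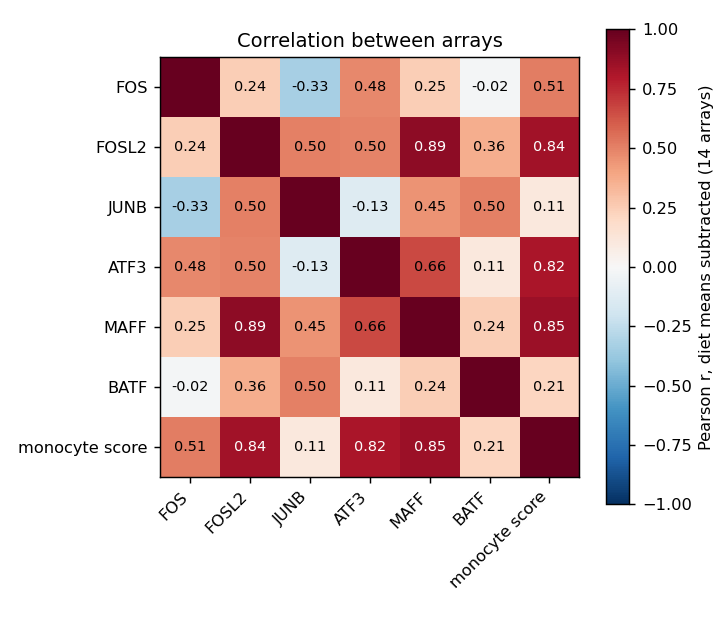
Pearson r between the 6 tested AP-1 genes and the monocyte marker score over the 14 arrays, after the mean of each diet was subtracted, as a colour from -1 to 1 with its value. FOSL2, MAFF and ATF3 have r of 0.82 to 0.85 with the score, and FOSL2 and MAFF have the highest r of any pair of genes (0.89).

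The genes most like each member were read from the same measure, Pearson r over 14 arrays with diet means subtracted, among 9349 tested genes that are no member. These are descriptions of the extremes of a long list. For FOS the closest were STING1 (r = 0.89), a sensor adaptor of cytosolic DNA, GLCE, SMIM11, the AP-1 relative BATF3 (r = 0.81) and MANBA, where the upper 1% limit was 0.67. For JUNB they were MAP2K4 (r = 0.87), a kinase upstream of JNK, PTDSS2, the RNA decay factor KHSRP (r = 0.86), PAQR6 and SH3BP5L. The lists for the other members were drawn up after their values were seen. ATF3 stood beside TLR2 (r = 0.95), the 1 gene of these 5 that is in the monocyte list, EPB41L3, CYBB (r = 0.93), the catalytic subunit of the phagocyte oxidase, CSF2RB and CD300LF. FOSL2 stood beside TREM1 (r = 0.94), a myeloid activating receptor, MRPS26, SLAMF9, MARCHF3 and CAMP. MAFF stood beside the glucose transporter SLC2A3 (r = 0.93), the kinase SGK1 (r = 0.93), RBM47, CAMP and CDKN1A (r = 0.92). BATF stood beside KATNIP (r = 0.93), MTG1, RIBC1, PNPLA2 and MAP3K14 (r = 0.85), the NF-kB inducing kinase.

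Of 10 other members of the wider family, 4 were tested, with 3 lower (46.0% of all tested genes were) and a median of -0.15. ATF2 was at -0.38 ± 0.36 (SE), as far from 0 as the median AP-1 member, JDP2, a repressor that pairs with JUN, at -0.22 ± 0.30 and BATF3 at 0.22 ± 0.39. None passed.

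Upstream of AP-1, the kinases and promoter factors that induce FOS and JUN genes had 13 of 19 tested genes lower, with a median of -0.12, and 0 passed. Of all tested genes 46.0% were lower. MAP3K1, a kinase at the head of the JNK branch, was at -0.57 ± 0.26 (SE, unadjusted p = 0.0437, limma), with other probe sets at -0.045 and -0.17. MEF2C was at -0.33 ± 0.27 (others 0.017 and -0.32). On the higher side were the kinases MAP2K2 (0.61 ± 0.31) and MAP2K4 (0.34 ± 0.21).

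Partners, competitors and factors of AP-1 turnover were evenly split, 6 of 12 lower. NFATC2, which binds DNA with AP-1 in activated T cells, was at 0.48 ± 0.18 (SE, unadjusted p = 0.0147, adjusted p = 0.918, limma), with its other probe set at 0.19 ± 0.17, and NFATC3 at 0.14 ± 0.18 (others -0.057, 0.29 and 0.080). ZFP36L1, which promotes decay of AU-rich mRNAs, was at -0.43 ± 0.18 (unadjusted p = 0.0290, others -0.025, -0.56 and -0.17), and BACH1, a repressor that pairs with small MAF proteins, at -0.14 ± 0.32.

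Of the genes known as AP-1 targets, 11 of 16 tested were lower, against 46.0% of all tested genes, with a median of -0.20, and 0 passed. IL1B was at -0.64 ± 0.44 (SE, others -0.84 and -0.98) and CD44 at -0.36 ± 0.27. The lowest IL1B signal in CR was 6412 in CR 6, against 34559 in controls, and 3 of 7 CR arrays were above the control median. This list was not read with the monocyte score as a covariate or without CR 6 and CR 7. ANXA1, annexin A1, was at 0.36 ± 0.17 (unadjusted p = 0.0458, limma, other probe set 0.44 ± 0.34). All 7 CR arrays were above its control median, which held for 5.56% of all tested genes, MAP2K4 among them. VIM was at 0.28 ± 0.24, with probe sets in both directions (-0.59, 0.35 and 0.11).

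The other immediate early genes, induced by the same stimuli as FOS, had 14 of 18 tested members lower, against 46.0% of all tested genes. Their median was -0.13 and their mean -0.28. Of the 14, 4 had an unadjusted p under 0.05, against 2.02% of all genes, and 0 had an adjusted one (limma). They were EGR2 (-0.98 ± 0.29, SE), NR4A1 (-0.79 ± 0.29), IER2 (-0.58 ± 0.21) and KLF10 (-0.50 ± 0.21), of which NR4A1 and KLF10 are named after their values were seen. The lowest of the CR arrays was CR 6 for EGR2, NR4A1 and KLF10, and CR 7 for IER2. This list too was not read with the monocyte score as a covariate or without CR 6 and CR 7. MCL1 was at 0.15 ± 0.14 (other probe set 0.16) and RGS1 at 0.31 ± 0.49. Of 9 heat shock genes, often raised by handling of cells, 4 were tested. HSPA1A, HSPA1B, HSPB1, HSPD1 and HSPE1 had no probe set with a single symbol. Of the 4 tested genes 1 was lower, against 46.0% of all tested genes, and the median was 0.083. HSPA8 was at 0.084 ± 0.14 (others 0.30 and 0.20), HSPH1 at 0.098 ± 0.24 (others 0.45, 0.39 and -0.19) and DNAJB1 at -0.0084 ± 0.14 (other probe set 0.23). An effect of handling was not tested.

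**Figure D5:**
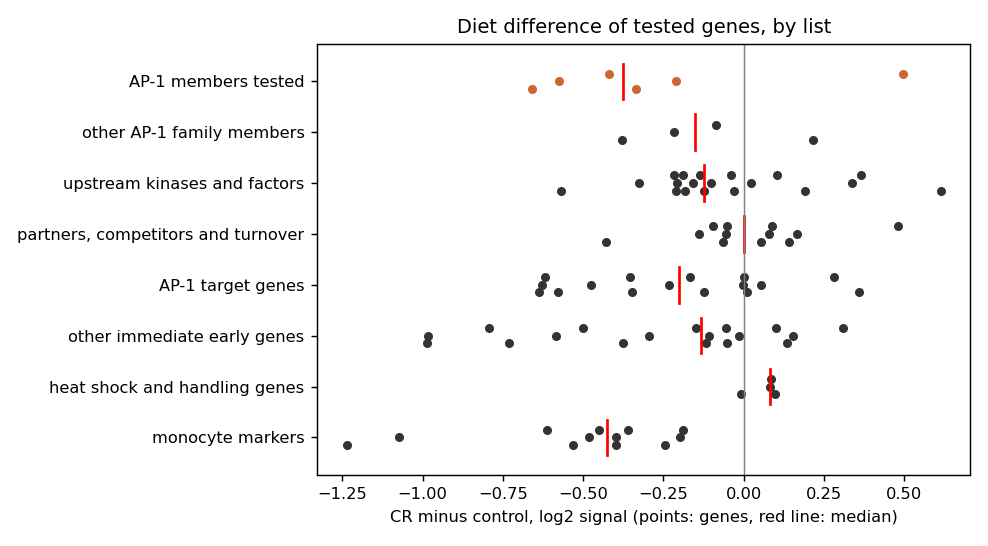
CR minus control in log2 signal (horizontal axis) for every tested gene of the AP-1 members, of the lists around them and of the monocyte markers. Points are genes and red lines medians: -0.38 for the AP-1 members, with BATF alone at the right, and -0.43 for the 12 monocyte markers.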

How the data were processed

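PBMC RNA of 14 animals was measured with 1 Affymetrix array each. The authors deposited 1 linear MAS5 intensity per probe set and array; MAS5 comes from the submitters' processing notes, without a version. Scaling, filters and genome build: not given in the sources used here. No batch was given in the labels.

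Intensities under 16 were set to 16 and log2 was taken. Of 52865 probe sets, 99 controls were left out and the brighter 50% kept (26383, geometric mean signal at least 87.7). The annotation gave 1 symbol to 24969 probe sets, several to 361 and none to 27535. Each gene takes its value from the brightest of its tested probe sets. The Entrez IDs of 24629 single-symbol probe sets matched the RefSeq gene table (0 symbols differed).

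CR minus control was tested with limma 3.58.1 in R 4.3.3 (lmFit, eBayes with trend, two-sided), with Benjamini-Hochberg adjustment over all tested probe sets and a threshold of 0.05. Correlations used 100000 permutations within diets (Python 3.11.15, numpy 2.4.6). Both scripts were tested on simulated data. The number of arrays limits the precision. Arrays were grouped by title. Alternatives covered normalization, floor, filter, weights, the replicate block, marker scores as covariates and arrays left out.

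The members and lists were chosen with earlier results of these data known. Named genes are all members, the 2 tested genes of each list with the smallest p in each direction, and the 5 genes most like FOS, JUN and JUNB, where JUN had no probe set.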

Additional observations from a re-analysis of the deposited data

Results flagged for a closer look

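In the second ATF3 probe set (MmugDNA.31246.1.S1_at), control 1 lay far above the other controls, with a gap to the next of 0.738 of the group's range. Control 2 lay far above the other controls in the neutrophil marker score (gap 0.594 of the range). Of 26 groups of 7 arrays examined (tested member probe sets and marker scores), chance flags about 1 in 20.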

How the results depend on the processing

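No setting called a probe set: the count stayed at 0, with the smallest adjusted p from 0.0850 (without control 6) to 0.994. The number of tested members lower in CR was 5, and 5 with any 1 array left out, 4 with the T cell score as a covariate, 2 with the monocyte score and 3 without CR 6 and CR 7. Of all tested genes 46.0% were lower on all 14 arrays, 46.1% with the monocyte score and 45.3% without CR 6 and CR 7. The median difference of members ran from -0.50 to -0.21 with 1 array left out. The BATF difference was 0.17 with the NK and cytotoxic score as a covariate and 0.26 with the T cell score. Signs turned with the monocyte score for FOS (0.12), FOSL2 (0.21) and ATF3 (0.0024), with the T cell score for ATF3 (0.013), without CR 6 and CR 7 for FOS (0.035) and FOSL2 (0.13), and in dim probe sets of ATF3 (0.37) and FOSL2 (0.028). The cause was not tested. Of the 28 relations, 4 passed by Pearson r, 4 by Spearman rho, 0 without the 2 arrays farthest from the median of x and 0 without CR 6 and CR 7, where fewer arrays were used. JUND relations count among the 28, but alternatives are not given for them, with JUND under the floor on 5 arrays. Relations that were not called changed sign: without CR 6 and CR 7, FOS with FOSL2 (-0.037), FOS with BATF (0.050), FOS with MAFF (-0.027) and JUNB with the monocyte score (-0.14), and without the 2 farthest arrays, JUNB with ATF3 (0.031) and ATF3 with BATF (-0.085). With 1 array left out, r ran from -0.14 to 0.11 for FOS with BATF, from -0.34 to 0.21 for JUNB with ATF3, from -0.028 to 0.25 for ATF3 with BATF and from -0.10 to 0.43 for JUNB with the monocyte score. Whether the replicate numbers of the titles pair the arrays was not settled. Same-numbered arrays correlated at -0.11 to 0.18 after diet means were subtracted, against medians of -0.075 to 0.067 with the other numbers. Of 7 controls, 1 correlated best with the CR array of its own number. With the replicate block 0 probe sets were called and MAFF was at -0.66 (unadjusted p = 0.0129, adjusted p = 0.730, limma).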
